A study of Mus musculus with 18 samples.

Results

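The ATRA time course of F9 embryonal carcinoma cells is described here, made up of 6 of the 18 arrays of the series: 4 arrays of cells given all-trans retinoic acid (ATRA) and 2 arrays of cells given the ethanol vehicle. They were chosen by their titles, which name the agent and the time. ATRA was added at 1 µM and total RNA was taken after 2 h, 6 h, 24 h and 48 h, with 1 array for each time. Vehicle-treated cells were measured at 48 h only, on replicate arrays 1 and 2, so the ATRA arrays of 2 h, 6 h and 24 h differ from vehicle in time in culture as well as in ATRA, which cannot be told apart. F9 is an established mouse line from a teratocarcinoma that grows as undifferentiated, stem-like cells, and all samples were grown in serum-containing medium on gelatine-coated plates. The series asks how transcription in these cells responds over time to agonists of the retinoic acid receptors (RARs).

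Retinoic acid enters the nucleus and binds RARs, which sit on DNA as partners of the retinoid X receptors (RXRs). Many of their response elements are direct repeats of a short hexamer, and ligand binding replaces corepressors with coactivators. Known direct targets include enzymes that degrade retinoic acid, RARβ itself and the 3′ members of the Hox clusters, which set position along the body axis. F9 cells given retinoic acid as a monolayer are a textbook model of primitive endoderm, and they move on to parietal endoderm, the cell layer that lays down a thick basement membrane, more fully when cyclic AMP is added.

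Levels were log2 values of 19938 genes on Affymetrix whole-transcript arrays, and the median over genes was 5.94, 6.01, 6.04 and 6.07 on the ATRA arrays of 2 h, 6 h, 24 h and 48 h, against 6.00 and 5.82 on vehicle replicates 1 and 2. The stem cell genes that define the line were at the upper end of the scale on vehicle arrays: Pou5f1 at 12.20 and 12.08, Sox2 at 11.91 and 11.72 and Nanog at 12.07 and 11.08. The vehicle arrays were not alike. Their Pearson correlation across genes was 0.9821, and replicate 1 exceeded replicate 2 by 2-fold or more for 311 genes and fell short of it by as much for 354. Every ATRA array correlated more closely with vehicle replicate 1 (0.987, 0.990, 0.9927 and 0.9755 at 2 h, 6 h, 24 h and 48 h) than with replicate 2 (0.9851, 0.9822, 0.972 and 0.9618). These are descriptions across genes, which are not independent. A gene was therefore counted at a given time only when its ATRA array was at least 2-fold higher than both vehicle arrays, or at least 2-fold lower than both; this is called the 2-fold rule below, and each fold given is the smaller of the 2. With 1 array per time the rule carries no replicate check and no p-value.

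By the 2-fold rule few genes stood apart until 48 h. After 2 h 143 genes (0.717% of all genes) met it, 91 higher (0.456%) and 52 lower (0.261%). After 6 h there were 120 (0.602%), 81 higher (0.406%) and 39 lower (0.196%), and after 24 h 166 (0.833%), 106 higher (0.532%) and 60 lower (0.301%). After 48 h 766 genes (3.84%) met it, 650 higher (3.26%) and 116 lower (0.582%). That split at 48 h was 567 higher and 164 lower after quantile scaling, and 521 and 160 after median centring. In all, 932 genes (4.67%) met the rule at 1 time or more, with 744 higher (3.73%) and 193 lower (0.968%), 5 of which were both. Many lay close to the limit: at 48 h 175 genes were 2 to 2.2-fold and another 273 were 1.8 to 2-fold from both vehicle arrays. Against vehicle replicate 1 alone the counts were 457, 291, 192 and 1019 genes at the 4 times, and against replicate 2 alone they were 517, 629, 1315 and 1789. Between successive ATRA arrays 55 genes were at least 2-fold higher and 35 lower at 6 h than at 2 h, 235 higher and 147 lower at 24 h than at 6 h, and 607 higher and 145 lower at 48 h than at 24 h.

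**Figure D1:**
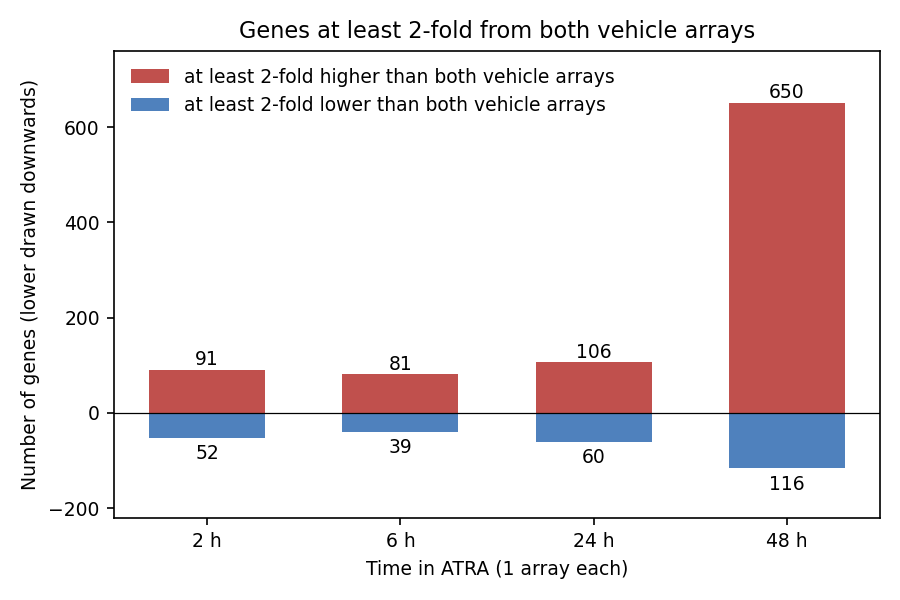
Number of genes (vertical axis) at least 2-fold higher (red, upward) or lower (blue, downward) than both vehicle arrays on the ATRA array of each time (horizontal axis). The bars of 2 h, 6 h and 24 h hold 120 to 166 genes each, and the bar of 48 h holds 766.

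The 932 genes were sorted by the times at which they met the rule. At all 4 times, in the same direction, it was met by 25 genes, 21 higher and 4 lower, and from 6 h on by 6 more, 4 higher and 2 lower. At 2 h or 6 h but not later it was met by 98 transient genes, 56 higher and 42 lower. At 24 h and 48 h but not earlier it was met by 56 delayed genes, 38 higher and 18 lower. The 639 genes that met it at 48 h only, 562 higher and 77 lower, were the largest class. The rest were genes that met it at 24 h only (23 higher and 24 lower), at 24 h and earlier but not at 48 h (13 and 8), in interrupted patterns (22 and 13), or higher at one time and lower at another (5 genes). Because an array just short of 2-fold moves a gene to another class, members with a gap of at least 2-fold between the nearest ATRA arrays that did and did not meet the rule were counted as clear. Clear members were 9 of the higher and 8 of the lower transient genes, 15 and 7 of the delayed ones, and 366 and 25 of those at 48 h only.

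A linear model in limma over all 18 arrays gave the only tests. It takes the spread from the vehicle pair and from how the retinoids of the series depart from common time steps. Besides ATRA, these retinoids were BMS961 at 0.1 µM, and BMS753 and BMS641 at 1 µM, so the doses differed. Each had 1 array at 2 h, 6 h, 24 h and 48 h. The model compared the ATRA arrays of 2 h and 6 h together (early) and of 24 h and 48 h together (late). At a Benjamini-Hochberg adjusted p under 0.05, 249 genes (1.25%) were called early against vehicle, of which 170 (0.853%) rose and 79 (0.396%) fell. Late against vehicle 940 (4.71%) were called, of which 660 (3.31%) rose and 280 (1.4%) fell. The labels do not say that the vehicle arrays were separate cultures, so their part of this spread may be technical. The other part comes from single arrays and may hold real differences between the retinoids in their time steps. These p-values thus measure the spread among these arrays and cannot be read as set against replicate cultures. The classes above came from the same arrays, so a limma call on a member is not independent of its class. With the 6 ATRA and vehicle arrays alone limma called no gene early and 2 late, Cyp26a1 and the sulfate transporter Slc26a2.

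The enzyme Cyp26a1, which oxidises and so inactivates retinoic acid, was furthest from vehicle at every time. Its level was 10.06, 10.30, 10.97 and 12.01 at 2 h, 6 h, 24 h and 48 h of ATRA, against 5.05 and 4.85 on the vehicle arrays. All 4 ATRA arrays lay far above both vehicle arrays, 32.1-fold at 2 h and 124-fold at 48 h. In limma it rose by 5.22 on the log2 scale early (adjusted p = 3.8e-05) and by 6.54 late (adjusted p = 1.53e-06), and the fit of the 6 arrays alone also called the late rise (log2 6.54 ± 0.34 SE, adjusted p = 0.0267). The gene of RARβ, Rarb, had 7.58, 7.50, 8.39 and 9.27 in ATRA, against 5.79 and 4.45 in vehicle. It was 3.46-fold above both vehicle arrays at 2 h and 11.1-fold at 48 h (limma late against vehicle, log2 3.71, adjusted p = 0.00043).

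The upstream sequences of these 2 early targets are shown because each holds a direct repeat of the RAR hexamer. Windows of 250 bases before to 50 after each gene's start, from RefSeq (GRCm38.p6), were searched on both strands for the hexamer AGGTCA, its variant GGGTCA, or the forms AGTTCA and also GGTTCA, followed by 5 bases of any kind and again by one of these hexamers (DR5). The stretch of Cyp26a1 is chr19:37697746-37697807 on the plus strand of the genome, and the repeat lies 32 to 16 bases before the start, on the strand opposite to the gene. The stretch of Rarb is chr14:16575483-16575559, printed in the gene's direction, which is the minus strand, with the repeat 53 to 37 bases before the start. Capitals mark the repeated hexamers.
Cyp26a1: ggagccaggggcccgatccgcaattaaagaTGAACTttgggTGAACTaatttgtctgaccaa
Rarb: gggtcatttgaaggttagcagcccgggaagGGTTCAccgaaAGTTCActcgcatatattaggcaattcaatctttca
Of 15614 genes with a window 11 (0.0704%) held a DR5. Cyp26a1 and Rarb were the only ones among the 932 genes, and so 2 of the 68 genes with a window that were higher at 2 h (2.94%). The other 9, Blvrb, Cfap45, Gm1043, Hbb-y, Ppbp, Prokr2, Prss27, Syndig1 and Tnfsf13b, did not meet the 2-fold rule at any time. Repeats spaced by 2 bases were found for 14 genes (0.0897%) and by 1 base for 38 (0.243%), none of them higher at 2 h. A match is a description of these letters and not of binding, and elements outside the window were not searched.

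The other proteins that handle retinoic acid joined at different times. Retinoid receptors and metabolism were covered by 22 measured genes, of which 5 were higher at 2 h and 5 at 6 h, 6 at 24 h and 6 at 48 h, and 1 was lower, at 48 h. Over all genes the shares that were higher were 0.456%, 0.406%, 0.532% and 3.26% at the 4 times and those that were lower 0.261%, 0.196%, 0.301% and 0.582%, beside which the counts of list members by the 2-fold rule stand here and below. Lists and members were chosen with earlier results of these data known, so their counts are not independent of the data. Dhrs3, a reductase that turns retinal back into retinol, had 7.60, 7.65 and 7.75 at 2 h, 6 h and 24 h and 9.92 at 48 h, against 5.78 and 4.96 in vehicle. It was between 3.53-fold and 3.92-fold above both vehicle arrays up to 24 h and 17.5-fold above them at 48 h. Stra6, the cell-surface receptor for retinol bound to its carrier, met the rule from 6 h on, with 6.77, 7.42, 7.85 and 8.94 in ATRA, against 6.06 and 5.65 in vehicle (limma late against vehicle, log2 2.54, adjusted p = 0.000862). Crabp2, which carries retinoic acid to the receptors in the nucleus, came later: it had 6.53, 6.09, 7.86 and 11.47 in ATRA, against 5.81 and 6.19 in vehicle. Its arrays of 2 h and 6 h lay within the reach of the vehicle arrays or under 2-fold from them, and that of 48 h was 38.9-fold above both. Cyp26b1, another retinoic acid oxidase, was above both vehicle arrays at 48 h only, by 2.45-fold.

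Among the receptors Rarb and Rxrg lay furthest from vehicle. Rara, at 8.92, 8.64, 8.59 and 7.69 in ATRA, against 7.63 and 7.82 in vehicle, was 2.14-fold higher at 2 h and inside the vehicle pair at 48 h. In limma Rara rose early (log2 1.05, adjusted p = 0.034). Rarg, Rxra and Rxrb did not meet the 2-fold rule at any time. Rarg had 9.65, 9.41, 9.14 and 8.50 in ATRA, against 8.90 and 9.09 in vehicle, so it was above both vehicle arrays up to 24 h and below both at 48 h. It fell from early to late by 0.71 on the log2 scale (± 0.14 SE, limma adjusted p = 0.0157). Rxrg, which codes for RXRγ, was one of the 5 genes that met the rule both ways: it had 7.81, 8.22, 7.00 and 4.49 in ATRA, against 5.94 and 5.58 in vehicle. It was thus 3.64-fold and 4.86-fold above both vehicle arrays at 2 h and 6 h, and 2.12-fold below both at 48 h.

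Hox genes joined in groups. Of the 9 measured genes of the Hoxb cluster 3 were higher at 2 h and at 6 h (Hoxb2, Hoxb4 and Hoxb5), and 6 at 24 h and at 48 h, none being lower. Hoxb2 had 6.44, 6.88, 8.46 and 9.41 in ATRA, against 5.21 and 5.16 in vehicle, so each later array was higher and all were above vehicle. Its late rise was 3.75 on the log2 scale in limma (adjusted p = 0.000241), and its early one missed the threshold (log2 1.47, adjusted p = 0.0547). Hoxb4 and Hoxb5 had 6.29 and 6.51 at 2 h and 7.52 and 7.58 at 48 h, against 5.04 and 4.81 for Hoxb4 and 5.14 and 4.55 for Hoxb5 in vehicle. Hoxb6 and Hoxb9 met the rule from 24 h on, Hoxb13 at 24 h only and Hoxb1 at 48 h only, while Hoxb3 and Hoxb7 did not meet it. Hoxb1, at 6.17, 6.54, 6.59 and 7.52 in ATRA, against 5.76 and 5.15 in vehicle, stood above both vehicle arrays at every time and passed 2-fold only on the last array.

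Of the 10 measured genes of the Hoxa cluster 1 was higher at 2 h and at 6 h, 4 at 24 h and 3 at 48 h. Hoxa5 had 7.84, 8.71, 9.73 and 10.47 in ATRA, against 5.57 and 5.52 in vehicle. It was 4.83-fold above both vehicle arrays at 2 h and 17.9-fold at 24 h, and it rose both early (limma log2 2.73, adjusted p = 5.3e-05) and late (log2 4.56, adjusted p = 3.37e-07). Hoxa2 and Hoxa3 met the rule at 24 h and 48 h and Hoxa4 at 24 h only, and Hoxa6, Hoxa7, Hoxa9, Hoxa10, Hoxa11 and Hoxa13 did not meet it. Of the 18 genes of the Hoxc and Hoxd clusters 2 met it, both at 48 h only: Hoxc4 had 4.44, 4.71, 4.82 and 6.97 in ATRA, against 4.53 on each vehicle array, and Hoxc5 was 4.78-fold above both.

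Of 24 other genes known as retinoid targets 3 were higher at 2 h, 4 at 6 h, 8 at 24 h and 13 at 48 h, and none was lower at any time. A few of them, such as Foxa1, are also counted in lists given below. Stra8, the retinoid-induced gate to meiosis in germ cells, had 10.15, 10.29, 10.93 and 10.28 in ATRA, against 8.44 and 5.17 in vehicle. All ATRA arrays lay above both vehicle arrays, which themselves lay far apart for this gene; limma called the late rise (log2 3.80, adjusted p = 0.0295) and not the early one (adjusted p = 0.0905). Nrip1, a corepressor recruited by liganded nuclear receptors, had 8.70, 9.10, 9.31 and 9.55 in ATRA, against 7.32 and 7.13 in vehicle. It was called both early (limma log2 1.67, adjusted p = 0.00094) and late (log2 2.20, adjusted p = 9.5e-05). Greb1l had 6.82, 7.55, 8.52 and 8.31 in ATRA, against 5.78 and 5.03 in vehicle, and its other probe set ran the same way, with 6.22, 6.87, 7.87 and 7.95 in ATRA, against 5.03 and 4.43 in vehicle.

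Homeobox cofactors that bind DNA with Hox proteins met the 2-fold rule from 24 h or 48 h on, though Pbx2 stood above both vehicle arrays from 2 h. Meis2 had 7.28, 6.72, 8.49 and 9.68 in ATRA, against 7.02 and 6.95 in vehicle, and was thus above both by 2-fold only from 24 h on. Meis1 had 5.19, 5.15, 5.91 and 8.91 in ATRA, against 4.93 and 5.16 in vehicle, 13.5-fold above both at 48 h. Pbx2 was between 1.81-fold and 2.35-fold above both vehicle arrays over the 4 times. In limma the late levels of all 3 rose against vehicle (adjusted p = 0.00319, 0.0283 and 0.00166 for Meis2, Meis1 and Pbx2). The list also held Tshz1, a zinc finger factor, at 8.30 after 48 h, against 5.01 and 4.93 in vehicle, and Nr2f2 at 6.66, against 4.46 and 4.28.

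From 6 h on, besides Stra6, the genes Gfra1, Sema3e and Rhob were higher. Gfra1, a co-receptor for glial cell line-derived neurotrophic factor, had 7.23, 7.66, 8.64 and 9.34 in ATRA, against 6.52 and 5.48 in vehicle (limma late against vehicle, log2 2.99, adjusted p = 0.000457). Sema3e, a secreted guidance ligand, stayed between 6.70 and 7.26 in ATRA, against 5.73 and 5.53. Rhob, a small GTPase, ran between 8.71 and 10.13, against 8.42 and 7.88. Lower from 6 h on were Nkx6-3, at 6.78, 6.98 and 6.15, against 8.05 and 8.84, and Dab1, at 6.49, 6.52 and 6.11, against 7.52 and 7.98.

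**Figure D2:**
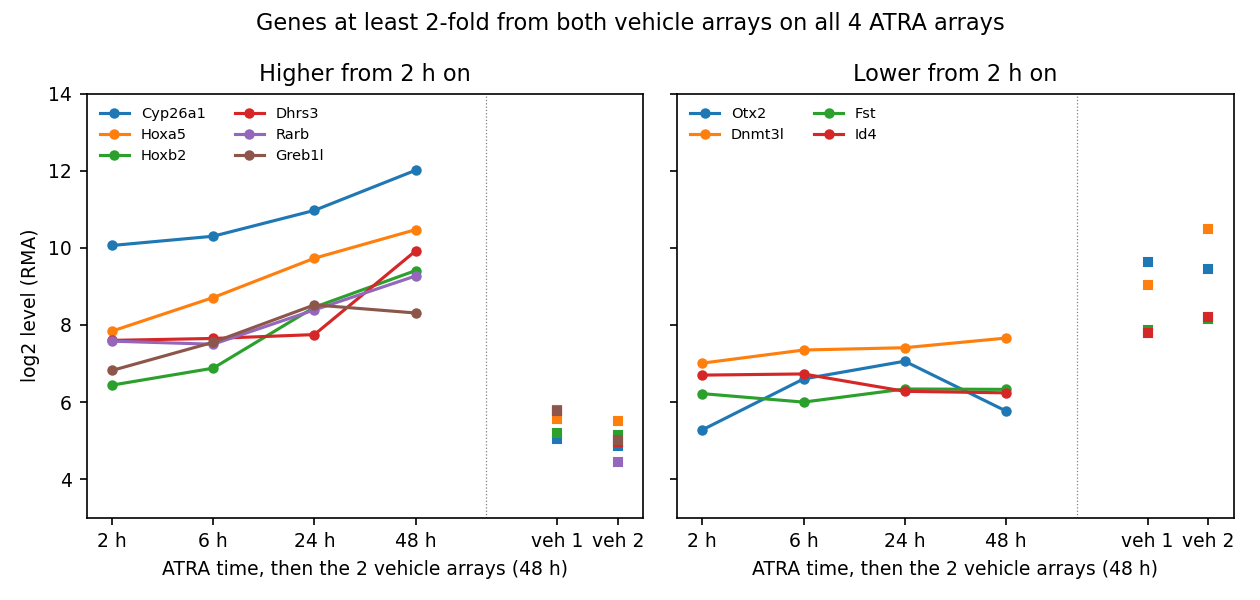
Log2 level (vertical axis) of genes at least 2-fold higher (left panel) or lower (right panel) than both vehicle arrays on all 4 ATRA arrays; circles joined by lines are the ATRA arrays of 2 h, 6 h, 24 h and 48 h and squares the vehicle arrays 1 and 2. Cyp26a1 goes up to 12.01 and Hoxa5 to 10.47 at 48 h, and Otx2 lies at or under 7.06 on every ATRA array, against 9.63 and 9.46 in vehicle.

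The 4 genes that were lower at all times were Otx2, Dnmt3l, Fst and Id4. Otx2, a homeobox factor of the epiblast and forebrain, had 5.28, 6.60, 7.06 and 5.77 in ATRA, against 9.63 and 9.46 in vehicle. It was 18.1-fold below both vehicle arrays after 2 h, 5.29-fold after 24 h and 13.0-fold after 48 h, and in limma it fell by 3.60 on the log2 scale early (adjusted p = 0.000995). Dnmt3l, the cofactor of the de novo DNA methyltransferases, had 7.01, 7.35, 7.41 and 7.66 in ATRA, against 9.03 and 10.49 in vehicle. Fst, which binds and blocks activin, had 6.22, 6.00, 6.34 and 6.33, against 7.88 and 8.15, and Id4, an inhibitor of basic helix-loop-helix factors, had 6.70, 6.73, 6.28 and 6.24, against 7.78 and 8.21. That the ATRA and vehicle arrays did not overlap for these 4 genes follows from the rule that chose them. Of the other 11 measured epiblast factors Etv4 was higher at 2 h, Zic5 was higher at 6 h and Foxd3 was lower at 48 h.

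Stem cell genes that met the rule were all lower. Of 27 measured pluripotency genes 1 was lower at 2 h, none at 6 h, 2 at 24 h and 5 at 48 h (0.582% of all genes were lower at 48 h). Early against vehicle limma called 3 lower and 1 higher, beside 0.396% and 0.853% of all genes. Late against vehicle it called 10 of the 27 lower, beside 1.4% of all genes, and none higher. The 10 were Sox2, Zfp42, Dppa4, Tcl1, Prdm14, Nr5a2, Utf1, Fgf4, Tdgf1 and Gdf3. Utf1, a chromatin factor of stem cells, had 11.07, 10.98, 10.04 and 9.98 in ATRA, against 10.98 and 10.86 in vehicle, so it left the vehicle range from 24 h on (limma log2 -0.91, adjusted p = 0.00173). Pou5f1 was at 12.21, 12.18, 12.00 and 11.80 in ATRA, against 12.20 and 12.08 in vehicle, and its late difference missed the threshold (limma log2 -0.24, adjusted p = 0.254). Nanog, at 11.57 to 11.90 in ATRA, overlapped the vehicle levels of 12.07 and 11.08. Sox2 was below both vehicle arrays at all times, at 10.74, 11.11, 11.38 and 10.97, against 11.91 and 11.72, and fell both early (limma log2 -0.89, adjusted p = 0.0212) and late (log2 -0.64, adjusted p = 0.0456), short of 2-fold. Tcl1, a cofactor of the kinase AKT, was lower from 24 h on, at 8.58 and 7.96, against 10.20 and 9.83. Nr5a2, Nr0b1, Fgf4 and Tdgf1 met the rule at 48 h only, Tdgf1, the NODAL co-receptor, with 12.41, 12.07, 11.33 and 10.21 in ATRA, against 11.98 and 11.82 in vehicle. In bulk RNA, fewer cells that hold a transcript and less of it per cell cannot be told apart, here and below.

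Enzymes of DNA methylation went different ways. Dnmt3a, a de novo methyltransferase, had 10.30, 10.29, 9.41 and 9.80 in ATRA, against 8.75 and 8.24 in vehicle, and rose early (limma log2 1.79, adjusted p = 0.00133) and late (log2 1.11, adjusted p = 0.0124). Dnmt3l was lower throughout. Uhrf1 and Tet1, which take part in maintaining and in oxidising the mark, were close to vehicle up to 6 h and lower at 48 h: Tet1 had 10.66, 10.76, 9.57 and 8.81, against 10.73 and 10.31. Tet1 fell from early to late by 1.51 on the log2 scale (± 0.19 SE, limma adjusted p = 0.004).

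The transient genes were led by different kinds of proteins. Elavl3, an RNA-binding protein of neurons, had 8.44, 9.29, 7.39 and 6.29 in ATRA, against 6.70 and 7.13 in vehicle: it was 4.47-fold above both at 6 h and below both at 48 h. Khdc3, a protein of oocytes and stem cells, had 7.29, 7.74, 5.63 and 4.93, against 5.92 and 5.46. Edn1, the peptide endothelin-1, was highest at 2 h, with 6.77, 5.74, 5.48 and 5.60, against 4.98 and 4.82. Anpep (aminopeptidase N), Notch4 (a Notch receptor) and Slc15a1 (a peptide transporter) were between 2.05-fold and 3.22-fold above both vehicle arrays at 2 h and 6 h and under 1.5-fold later. Of these 6 genes limma called 4 early against vehicle, namely Elavl3, Khdc3, Anpep and Notch4, and left out Edn1 and Slc15a1 (both adjusted p = 0.0547).

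Genes that were low at 2 h or 6 h alone included Plk2 and Cldn4. Plk2, a polo-like kinase, had 7.65, 7.26, 9.59 and 8.76 in ATRA, against 8.91 and 9.59 in vehicle, and Cldn4, a tight junction protein, had 8.19, 8.03, 9.59 and 9.69, against 9.95 and 9.53. Both were more than 2-fold below vehicle at 2 h and 6 h and at neither later time, and both rose from early to late (limma log2 1.72 ± 0.20 SE and 1.53 ± 0.17 SE, adjusted p = 0.00262 and 0.00234). Both were picked as clear members of their class, so this rise follows from the choice. Pdgfc, a ligand of the PDGF receptor alpha, had 7.23, 6.20, 7.20 and 7.39, against 8.10 and 8.52, and stayed below both at every time, by 2-fold at 6 h only. Cyclin G2 (Ccng2) was low at 2 h alone, at 6.02, against 7.46 and 7.45. Sgk3, a kinase, was at 5.44 and 5.58 early, against 6.76 and 7.90. H2bc4, at 6.06 at 6 h, against 8.16 and 7.47, is one of many near-identical histone H2B genes, whose signals the probes may share.

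Growth arrest and immediate early genes were partly lower at 2 h. Btg1, an antiproliferative factor, had 8.76, 9.38, 10.09 and 9.98 in ATRA, against 10.30 and 10.07 in vehicle, and Ddit4, an inhibitor of mTOR, had 8.71, 8.70, 9.98 and 9.64, against 9.99 and 10.23. Both fell early in limma (log2 -1.12 and -1.41, adjusted p = 0.00786 and 0.0011). Gadd45b, a stress sensor, had 9.59, 8.75, 8.63 and 8.70, against 7.76 and 7.33, and rose early (log2 1.62, adjusted p = 0.00152) and late (log2 1.12, adjusted p = 0.00824). Of 29 immediate early and stress genes 2 were lower at 2 h, and 1 was higher and 1 lower at 6 h and again at 24 h. Egr1 was the higher one at 6 h, with 7.30, against 5.97 and 5.54. At 48 h Jun was higher, with 9.34, against 6.48 and 7.72, though on the 2 h array it was below both.

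**Figure D3:**
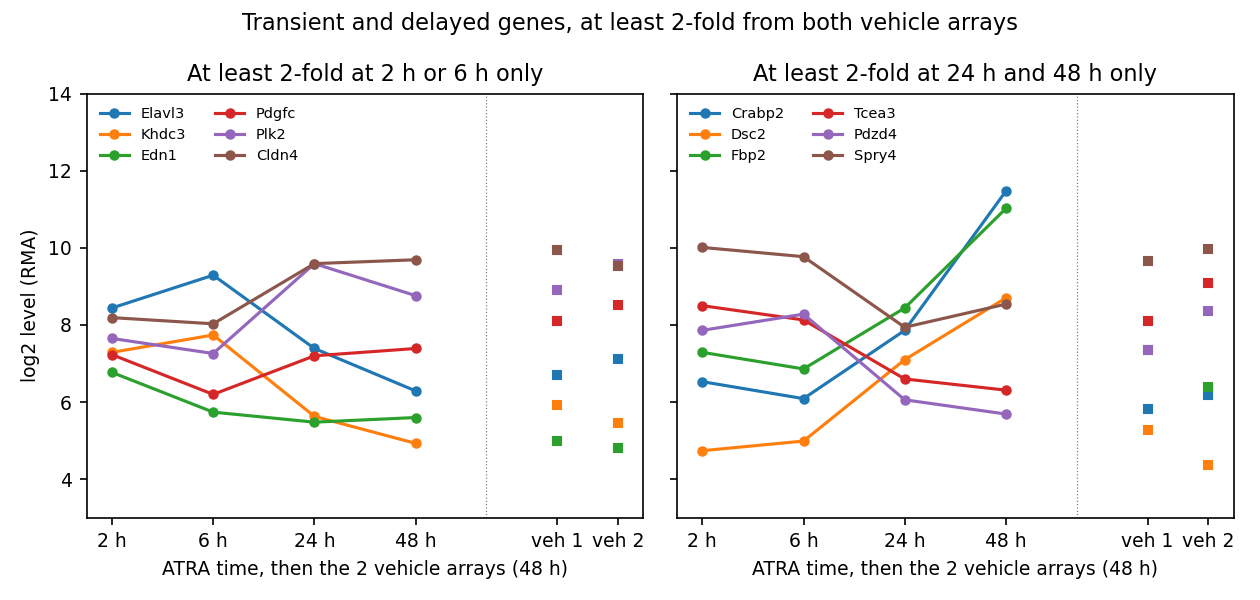
Log2 level (vertical axis) of genes that met the 2-fold rule at 2 h or 6 h only (left panel) and at 24 h and 48 h only (right panel); circles joined by lines are the ATRA arrays and squares the vehicle arrays 1 and 2. Elavl3 peaks at 9.29 at 6 h, and Crabp2 and Fbp2 reach 11.47 and 11.02 at 48 h.

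Delayed genes began with Crabp2 and Meis2, given above. Dsc2, a desmosomal cadherin, had 4.74, 4.99, 7.10 and 8.70 in ATRA, against 5.28 and 4.38 in vehicle, so both early arrays lay inside the vehicle pair and both late ones above it (limma late against early, log2 3.03 ± 0.31 SE, adjusted p = 0.00174). As a clear member of its class, Dsc2 was picked for such a difference. Fbp2, a gluconeogenic phosphatase, had 7.29, 6.86, 8.44 and 11.02, against 7.35 and 6.38. Has2, which makes hyaluronan, had 4.96, 5.36, 6.71 and 7.74, against 5.20 and 4.78, and Efnb1, an ephrin ligand, had 8.47, 8.73, 9.81 and 10.01, against 8.11 and 6.97.

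Delayed lower genes were under 2-fold from vehicle at 2 h and 6 h. Tcea3, a transcription elongation factor, had 8.50, 8.13, 6.60 and 6.31 in ATRA, against 8.09 and 9.10 in vehicle, and Pdzd4, a PDZ-domain protein, had 7.86, 8.28, 6.06 and 5.69, against 7.36 and 8.37. Spry4, a feedback inhibitor of FGF signalling, had 10.01, 9.77, 7.94 and 8.54, against 9.67 and 9.97. Adam23 and Pdk1, a cell adhesion protein and a kinase that closes pyruvate dehydrogenase, were 2.06-fold to 2.61-fold below both vehicle arrays at both late times. Snora20, a small nucleolar RNA, was at 4.48 and 4.60 late, against 5.74 and 5.81.

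Endoderm genes mostly met the rule at 48 h. Of 26 measured endoderm factors and parietal endoderm genes 1 was higher at 2 h, none at 6 h, 2 at 24 h and 19 at 48 h, beside the 3.26% of all genes higher at 48 h. Lower were 2 at 2 h, Fst and the tight junction gene Cldn6, and Fst alone at each later time. Sox17, Lrp2, Amn, Cited1 and Thbd did not meet the rule at any time. The list's median difference was 1.89 against vehicle replicate 1 and 1.79 against replicate 2 at 48 h, where over all genes it was -0.07 and -0.04. At 24 h it was 0.02 and 0.51, at 6 h -0.30 and 0.12, and at 2 h 0.00 and 0.43, the vehicle arrays themselves being 0.42 apart. With quantile scaling, and with median centring, 17 of the 26 were higher at 48 h.

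Among the transcription factors of the list only Gata6 met the rule at 2 h, and Sox17 met it at no time. Gata6, which directs cells to primitive endoderm, had 8.41, 7.83, 8.52 and 11.30 in ATRA, against 7.08 and 6.03 in vehicle: it stood above both vehicle arrays at all times, by 2.52-fold, 1.68-fold, 2.72-fold and 18.6-fold (limma late against vehicle, log2 3.35, adjusted p = 0.00566). Its partner Gata4 had 6.55, 6.73, 7.72 and 9.89, against 7.26 and 6.28, so it was above both only from 24 h on and by 2-fold only at 48 h (limma late against vehicle, log2 2.03, adjusted p = 0.0256). Sox7, a factor of the parietal lineage, had 8.61, 7.66, 8.77 and 10.32, against 8.30 and 7.61. Foxa1 reached the rule at 24 h, with 6.40, 7.04, 7.42 and 8.19, against 6.08 and 5.15, and Foxa2 at 48 h only, with 6.70, against 5.65 and 5.60.

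Several surface and secreted endoderm genes met the rule at 48 h only. Dab2, an endocytic adaptor of endoderm, had 7.73, 5.74, 7.80 and 11.27 in ATRA, against 8.20 and 5.51 in vehicle. Up to 24 h its levels lay inside the vehicle pair, and at 48 h it was 8.37-fold above both. The receptor Cubn ran alike, with 6.32, 4.73, 6.20 and 9.07, against 6.44 and 4.63. Plat, tissue plasminogen activator, had 5.13, 4.70, 5.25 and 9.55, against 5.42 and 5.04. Pdgfra, the PDGF receptor of primitive endoderm, had 5.75, 5.49, 6.15 and 10.04, against 6.24 and 4.92. The secreted WNT inhibitor Dkk1 had 7.82 at 48 h, against 5.41 and 4.99. The late group of the model averages 24 h with 48 h, and limma did not call Dab2, Cubn, Plat, Pdgfra or Dkk1 late against vehicle (adjusted p = 0.153, 0.151, 0.11, 0.0616 and 0.332). It called 8 of the 26 genes higher and 1, Fst, lower, beside 3.31% and 1.4% of all genes.

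Some basement membrane genes met the rule on the same array. Of 30 measured genes of basement membrane and matrix assembly 12 were higher at 48 h, beside 3.26% of all genes, and none at any earlier time, with 10 and 9 under quantile scaling and median centring. The laminin chains Lama1 and Lamb1 had 10.40 and 10.71 at 48 h, against 7.04 and 6.96 for Lama1 and 8.32 and 8.03 for Lamb1 in vehicle. At 6 h Lama1 was at 6.12, 1.79-fold below both vehicle arrays. Collagen IV chains were not steady in vehicle: Col4a1 had 7.65, 6.56, 6.94 and 9.05 in ATRA, against 7.24 and 6.04, and Col4a2 7.34, 6.32, 6.87 and 9.17, against 6.98 and 5.84. Sparc, a matrix protein, was at 11.89, against 10.13 and 10.14, and the collagen hydroxylases P4ha1, P4ha2, Plod1 and P3h2 were 2.02-fold to 2.95-fold above both. The hydroxylase genes Plod2, Plod3 and P4hb did not meet the rule at any time. Nor did Lama5, Lamb2, Col4a3, Col4a4, Col4a5, Col4a6, Nid1, Nid2, Hspg2 or Serpinh1. Limma, late against vehicle, called 6 of the 30 genes higher, beside 3.31% of all genes, and none lower.

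**Figure D4:**
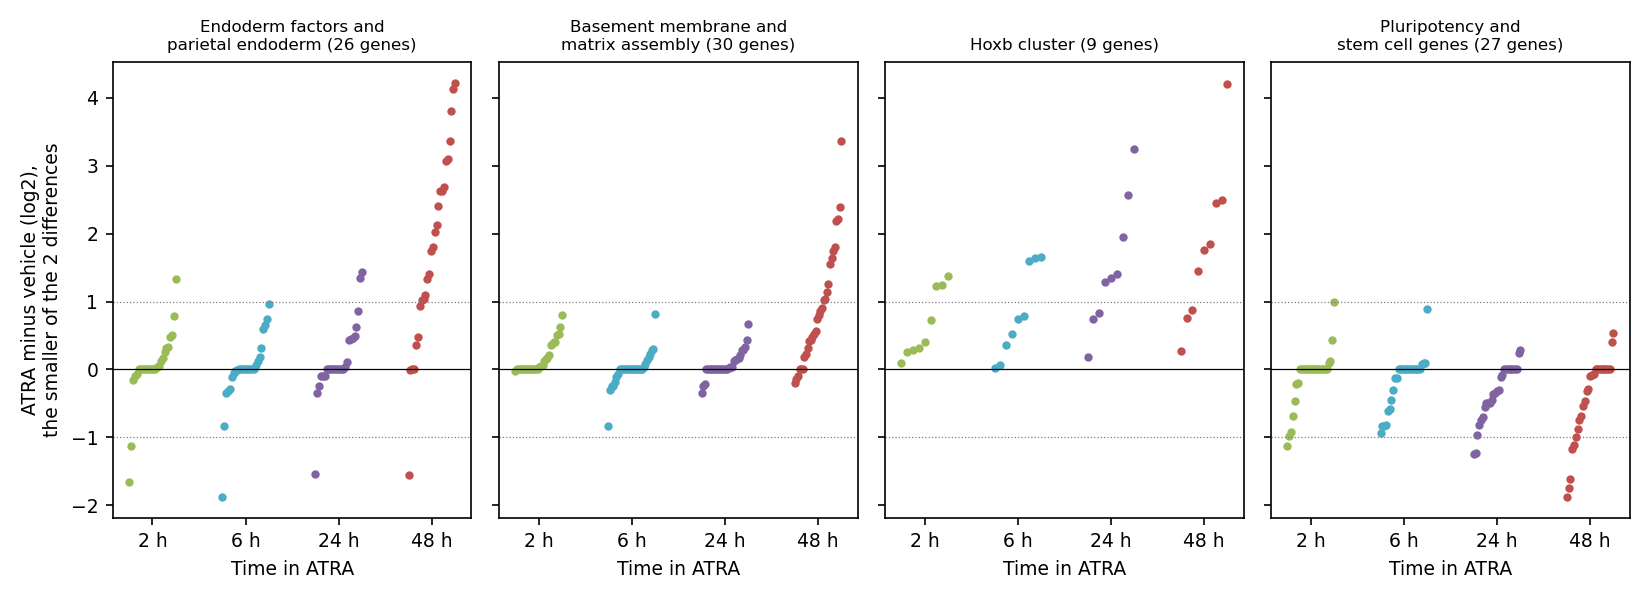
Difference between the ATRA array of each time and the vehicle array nearer to it (vertical axis, log2; set to 0 when the ATRA array lies between the vehicle arrays) for every measured gene of 4 lists, sorted within each time; dotted lines mark 2-fold. In the endoderm list 19 of 26 genes lie above the upper line at 48 h and at most 2 before, while 3 of 9 Hoxb genes are above it at 2 h already.

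Markers of other lineages met the rule mostly at 48 h, where 3.26% of all genes were higher and 0.582% lower. Of 17 visceral endoderm genes 1, Amot, was higher at 48 h, with 9.36, against 5.64 and 6.23, and none met the rule earlier. Of 24 neural genes 1 was higher at 2 h and 6 h (Elavl3) and 2 at 48 h (Pax6 and Irx3), and 1 was lower at 24 h and 48 h (Tubb3, neuronal beta-tubulin, at 7.49 and 7.37, against 8.53 and 8.60). Of 20 mesoderm genes 1 was higher at 2 h (Msx2) and 3 at 48 h (Eomes, Msx2 and Meox1), and of 12 trophoblast genes 2 (Eomes and Plac1). Of 17 fibroblast genes Tagln, Vim and Pdgfra were higher at 48 h only and Pdgfrb at all 4 times. None of 16 ribosomal protein genes met the rule at any time.

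Beside Plat and Pdgfra, the clear genes with the largest differences at 48 h only were in none of the lists. Gpr50, a receptor related to those of melatonin, had 4.44, 4.28, 5.11 and 10.70 in ATRA, against 4.13 and 4.09 in vehicle, which is 94.9-fold above both at 48 h and under 2-fold before. The forkhead factor Foxq1 had 6.06, 5.80, 6.29 and 10.68, against 6.23 and 5.57. Tspan8, a tetraspanin, had 4.37, 4.34, 4.86 and 9.08, against 4.99 and 5.25, and Egflam, a matrix protein, had 4.96, 4.73, 5.17 and 9.05, against 5.25 and 4.96. With 1 array of 48 h ATRA, these levels have no replicate check.

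Lower at 48 h only were 77 genes. Septin1, a cytoskeletal GTPase, had 9.99, 9.66, 8.65 and 6.26 in ATRA, against 9.67 and 9.62 in vehicle, 10.3-fold below both at 48 h. Bnc2, a zinc finger protein, had 6.94, 7.40, 7.08 and 5.48, against 8.15 and 7.94, and was below both at every time. Lgals3, which codes for galectin-3, had 7.95, 7.90, 7.16 and 6.15, against 8.04 and 8.53. Zfp518b, Lrrc2 and Epp13 were 3.68-fold to 3.91-fold below both vehicle arrays at 48 h.

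Signalling genes that met the rule included ligands, receptors, inhibitors and transcription factors. Of 24 genes of NODAL, BMP and TGF-beta signalling 5 were higher and 3 lower at 48 h, beside 3.26% and 0.582% of all genes. The NODAL antagonist Lefty1 had 9.99, 10.07, 11.32 and 10.60 in ATRA, against 9.37 and 7.52 in vehicle (limma late against vehicle, log2 2.51, adjusted p = 0.00986). The ligand Bmp2 was at 6.71 at 48 h and at 3.84 to 4.10 before, against 4.12 and 3.98, while Bmp4 had 9.72, 9.56, 8.83 and 8.20, against 9.31 and 9.81. The receptor Tgfbr2 and the inhibitors Smad6 and Bambi were 2.06-fold to 2.80-fold higher at 48 h.

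Of 23 genes of FGF and ERK feedback 1 was higher and 2 lower at 2 h and at 6 h, 3 lower at 24 h, and 2 higher and 2 lower at 48 h. Spry2, a feedback inhibitor like Spry4, had 8.43, 8.78, 8.42 and 9.41 in ATRA, against 10.02 and 9.89 in vehicle, and was low from the first array, whereas Spry4 was low only late. Dusp4, an ERK phosphatase, had 5.97, 6.51, 7.05 and 8.96, against 8.20 and 7.75, so it was below both up to 24 h and above both at 48 h, the last by less than 2-fold. Etv4, a factor induced by FGF, had 9.22, 8.95, 6.98 and 7.59, against 7.58 and 8.21. Etv4 rose early (limma log2 1.18, adjusted p = 0.0447) and fell from early to late (log2 -1.79 ± 0.25 SE, adjusted p = 0.00439). The receptor Fgfr2 was 5.73-fold above both vehicle arrays at 48 h and below both at 2 h and 6 h.

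Of 24 WNT genes 1 was higher and 1 lower at 24 h and 4 were higher at 48 h. Notum, which inactivates WNT ligands, had 8.75, 8.20, 6.26 and 6.89 in ATRA, against 7.44 and 8.12 in vehicle, and fell late against vehicle (limma log2 -1.20, adjusted p = 0.0107). Sfrp5, Dkk1 and Dkk3, secreted inhibitors, and the receptor Fzd8 were 2.72-fold to 5.82-fold higher at 48 h.

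The late arrays were also set against the early ones, a difference that does not use the vehicle arrays. In limma 987 genes (4.95%) rose and 462 (2.32%) fell from early to late, 1449 in all (7.27%). After quantile scaling the split was 949 and 769. Without the 2 h array the count was 31, without the 48 h array 138, without the 6 h array 388 and without either vehicle array 2554, and with the 6 ATRA and vehicle arrays alone it was 0, with 2217 genes at an unadjusted p under 0.05. The vehicle arrays differed along the same genes. Of the 987 genes that rose 68 (6.89%) were at least 2-fold higher and none was 2-fold lower on vehicle replicate 1 than on replicate 2, and of the 462 that fell 37 (8.01%) were 2-fold lower and 2 higher. Over all genes 1.56% were higher and 1.78% lower on replicate 1. What part this difference of the vehicle arrays has in the late against early result was not tested.

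Of the genes that rose most from early to late, Srgn, serglycin, a proteoglycan of secretory granules, had 10.14 and 12.62 at 24 h and 48 h and 8.19 and 7.02 at 2 h and 6 h, with 9.52 and 6.92 in vehicle. App, the amyloid precursor protein, had 9.45 and 10.46 late and 7.14 and 6.99 early, with 9.04 and 7.22 in vehicle, and Pros1, protein S of coagulation, had 8.09 and 9.64 late and 6.17 and 5.92 early, with 8.49 and 6.58 in vehicle. B4galnt2, a glycosyltransferase, had 8.58 and 7.81 late and 4.56 and 4.81 early, with 7.46 and 4.46 in vehicle. For these 4 genes vehicle replicate 1 was nearer to the late arrays and replicate 2 to the early ones. Their log2 differences were 3.77 ± 0.70, 2.89 ± 0.44, 2.82 ± 0.50 and 3.51 ± 0.65 (SE; limma adjusted p = 0.0114, 0.0058, 0.00986 and 0.0115), and each missed the threshold without the 2 h array and without the 48 h array, as did all but App without the 6 h array. Taf7l, a germ cell transcription factor, had 6.35 and 8.39 late and 4.63 and 4.61 early, with 5.35 and 4.79 in vehicle (log2 2.75 ± 0.42 SE, limma adjusted p = 0.00601, and 0.0882 without the 2 h array).

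Among the genes that fell, Myc had 6.38 and 7.59 late and 9.98 and 8.57 early, with 7.94 and 9.38 in vehicle (log2 -2.29 ± 0.49 SE, limma adjusted p = 0.0194, and 0.266 without the 2 h array). On the 2 h array Myc was above both vehicle arrays and on both late arrays below them. Slc16a3, a lactate exporter, had 8.72 and 8.74 late and 11.13 and 10.79 early, with 8.81 and 10.75 in vehicle, so here too vehicle replicate 1 matched the late and replicate 2 the early arrays. Septin1, Rxrg, Pdzd4, Slc15a1, Khdc3 and Elavl3, given above, completed the 8 largest falls.

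Lists of growth and metabolism were compared both with vehicle and between early and late. Of 17 genes of MYC and the G1 cyclins 3 were higher than both vehicle arrays at 1 time or more (Mxd4, Ccnd2 and Ccnd3) and 3 lower (Myc, Mycn and Ccnd1), beside 3.73% and 0.968% of all genes. Mycn, a relative of Myc, had 7.01, 7.36, 6.56 and 9.71 in ATRA, against 8.90 and 10.28 in vehicle, so it lay below both up to 24 h and between them at 48 h. Late against vehicle limma called 2 of the 17 lower, Ccnd1 and Cdk6, beside 1.4% of all genes. From early to late 6 of the 17 fell and none rose, beside 2.32% and 4.95% of all genes. Ccnd1, cyclin D1, had 8.82 and 8.28 late and 10.47 and 9.97 early, with 9.58 and 10.10 in vehicle (limma log2 -1.67 ± 0.23 SE, adjusted p = 0.00439), and Ccne1, cyclin E1, had 9.50 and 9.23 late and 10.86 and 10.67 early, with 9.45 and 10.25 in vehicle. Of 15 CDK inhibitors and growth arrest genes 2 were higher than both vehicle arrays at 1 time or more (Gadd45b and Gas1) and 2 lower (Btg1 and Ccng2). From early to late 7 of the 15 rose and none fell, beside 4.95% and 2.32% of all genes. Of the 7, Cdkn1b, p27, had 9.62 and 9.63 late and 8.56 and 9.13 early, with 9.36 and 8.89 in vehicle. Of 26 DNA replication genes 5 fell from early to late, beside 2.32% of all genes. Of these 5 genes, 2 (Mcm10 and Uhrf1) were lower than both vehicle arrays at 48 h. Of 23 mitosis genes 3 fell, beside the same 2.32% (Cdk1, Aurka and Bub1b, log2 -0.49, -0.48 and -0.55), and none met the 2-fold rule.

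Enzymes of cholesterol synthesis differed between the vehicle arrays. None of the 19 measured genes met the 2-fold rule at any time, yet 12 fell from early to late in limma, beside 2.32% of all genes. The median of the list was 1.27, 0.85, 0.02 and 0.19 above vehicle replicate 1 at 2 h, 6 h, 24 h and 48 h, and 0.30, -0.16, -1.09 and -0.84 against replicate 2. For this list the median of vehicle replicate 1 minus replicate 2 was -1.03. Idi1, an isomerase of the pathway, had 8.41 and 8.67 late and 10.71 and 10.16 early, with 8.68 and 10.65 in vehicle. Insig1, which holds back the pathway's master regulator, had 9.23 and 8.98 late and 10.98 and 10.43 early, with 9.20 and 10.60 in vehicle. The 12 calls became 0 without the 2 h array and 0 without the 48 h array, 1 without the 6 h array and 4 without the 24 h array. Of 21 glycolysis and hypoxia genes 5 fell from early to late, beside the same 2.32% of all genes. Among them was Ldha, lactate dehydrogenase, with 11.69 and 11.73 late and 13.02 and 12.93 early, and with 11.71 and 13.14 in vehicle. The median difference of the vehicle arrays for that list was -0.71 (replicate 1 minus replicate 2), and what part this has in either list was not tested.

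**Figure D5:**
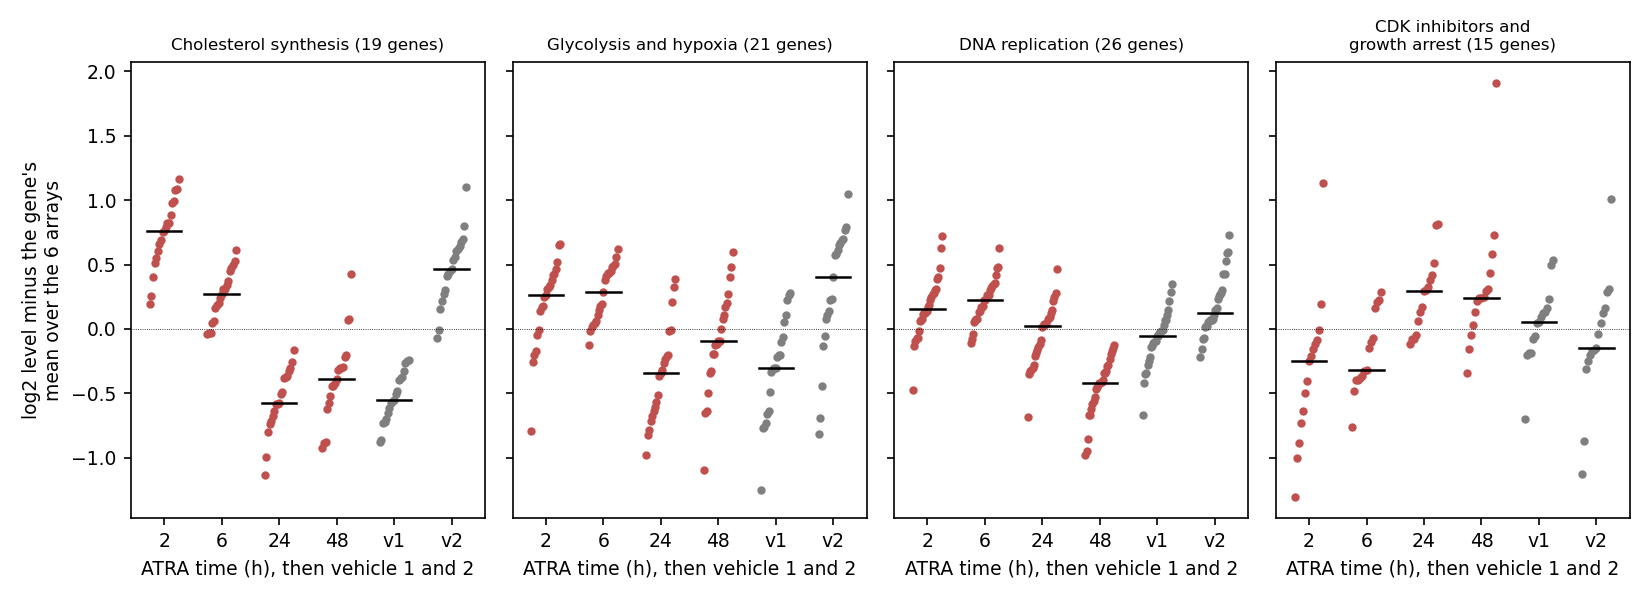
Level of each gene of 4 lists minus its mean over the 6 arrays (vertical axis, log2) on the ATRA arrays of 2, 6, 24 and 48 h (red) and vehicle arrays 1 and 2 (grey), sorted within each array; black bars are medians. In the cholesterol list vehicle 1 lies with the ATRA arrays of 24 h and 48 h, and vehicle 2 with those of 2 h and 6 h.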

How the data were processed

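Total RNA was labelled with biotin and hybridised to Affymetrix whole-transcript arrays. Per the submitters' processing notes, the authors used RMA and Affymetrix Expression Console 1.1 to make the deposited values, which are log2 levels of probe sets. The set of arrays that was normalized as one is not given in the sources used here. Values ran between 2.05 and 14.36 and were not rescaled. Of 35556 probe sets 21789 had 1 gene symbol in the platform annotation, 1621 several and 12146 none listed, and 21698 were matched to RefSeq by Entrez number. The brightest probe set stood for each of 999 genes with several, giving 19938 genes, dim ones included.

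The 2-fold rule and classes used the deposited levels. The model, in limma 3.58.1 under R 4.3.3, had 9 group means plus common steps between 2 h and 6 h and between 24 h and 48 h over the 18 arrays, with 7 residual and 4.55 prior degrees of freedom, with Benjamini-Hochberg adjustment over all genes. Tested on simulated data for late against early, it recovered 85.1%, 100% and 100% of genes changed 2-, 4- and 8-fold, with 12 false calls among 19938. The simulated data had independent normal noise and equal shifts on both late arrays, with no time steps and no set difference between the vehicle arrays. These figures therefore check the fit and do not give the rate of false calls in the real data. Python 3.11.15, pandas 2.3.3, numpy 2.4.6 and matplotlib 3.10.9 were used.

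Named genes were the 6 rises and 6 falls with the largest change in each of 5 classes (clear members only for transient, delayed and 48 h only), the 8 and 8 largest called late against early, and members of 26 textbook lists (479 of 509 genes measured). Members and lists were chosen with earlier results of these data known. The number of arrays limits the precision. Fold limit, vehicle arrays, scaling, dim genes, probe sets, model and left-out arrays were varied, and the other retinoids entered only the fit.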

Additional observations from a re-analysis of the deposited data

Results flagged for a closer look

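Rxrg, Cd24a and Eras were singled out because each met the 2-fold rule in one direction on an early ATRA array and in the other on a late one, and because limma called the difference between late and early. Rxrg differed by -2.27 on the log2 scale (late minus early, ± 0.40 SE, adjusted p = 0.00939, and 0.11 without the 2 h array), and its levels are given above. Cd24a, a surface glycoprotein, had 4.65, 4.33, 6.38 and 8.16 at 2 h, 6 h, 24 h and 48 h of ATRA, against 6.46 and 7.09 in vehicle, and differed by 2.78 (± 0.50 SE, limma adjusted p = 0.00986, and 0.125 without the 2 h array). Eras, a Ras protein of embryonic stem cells, had 8.62, 8.10, 7.51 and 6.00, against 7.59 and 7.52 in vehicle, and differed by -1.61 (limma adjusted p = 0.00965). Gpc4, a glypican, and Podxl, a sialomucin, met the rule both ways too, lower at 24 h and at 6 h and higher at 48 h, but were not called late against early (limma adjusted p = 0.328 and 0.168).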

How the results depend on the processing

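Of the counts recomputed under other settings 60 stayed within 1.5 times the count reported and 54 did not. Quantile scaling, median centring and averaging probe sets moved none of the counts of genes by time or by class past 1.5 times. The fold limit did: at 1.5-fold 523, 489, 597 and 1858 genes were counted at 2 h, 6 h, 24 h and 48 h, with 84 sustained from 2 h, 370 transient, 199 delayed and 1360 at 48 h only, and at 3-fold 30, 35, 37 and 283, with 6, 29, 10 and 259. Against the mean of the vehicle arrays the counts were 314, 285, 472 and 1204, with 78 sustained, 175 transient and 154 delayed. Among genes above the median level 494 were counted at 48 h and 389 at 48 h only. With either vehicle array left out the counts by time ranged over 457 to 517, 291 to 629, 192 to 1315 and 1019 to 1789, and those of the classes over 33 to 213, 214 to 362, 59 to 425 and 797 to 951. In limma, leaving out 1 array at a time gave 41 to 837 genes early against vehicle (41 without 2 h, 119 without 6 h, 837 and 455 without vehicle 1 and 2), 148 to 3594 late against vehicle (148 without 48 h, 1655 without 24 h, 3594 and 175 without vehicle 1 and 2) and 31 to 2554 late against early. The 6 arrays alone gave 0, 2 and 0, with 971, 1918 and 2217 genes at an unadjusted p under 0.05, and a minimum of 2-fold gave 135, 421 and 486. Late against vehicle, the split of higher and lower genes was 520 and 436 after quantile scaling and 394 and 370 after median centring. For the named genes all 208 recomputed folds stayed past 2-fold in the same direction, though leaving out a vehicle array can only raise them. Of 204 recomputed limma values for late against early 159 stayed past the threshold, 45 missed it and none changed direction. The counts of list members and the calls in the cholesterol list under other settings were added after seeing the data. No paired analysis was possible because the vehicle arrays alone carry replicate numbers. With 1 array per time, chance differences of that array cannot be separated from the time, and dim genes near the low end of the scale are least certain.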

Other observations

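A few genes known from germ cells were picked after their levels were seen and are given as values only, with no list or test behind them. Tex11 and Rbm46, which act in meiosis and in germ cell RNA control, had 5.23 and 5.16 at 2 h, 5.52 and 5.94 at 6 h, 6.92 and 7.23 at 24 h and 8.06 and 7.97 at 48 h of ATRA, against 5.77 and 5.04 for Tex11 and 5.89 and 4.79 for Rbm46 in vehicle. Both were above both vehicle arrays at 24 h and 48 h. Meioc, a meiosis factor, had 5.42, 6.61, 8.86 and 8.34, against 7.65 and 5.73, and Sycp3, of the synaptonemal complex, had 4.09, 4.70, 6.58 and 5.10, against 5.31 and 4.54; each was 2-fold above both vehicle arrays at 24 h only.

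Of 287 microRNA hairpin genes 4 met the 2-fold rule, all of them lower, which is 1.39%, beside 4.67% of all genes in either direction and 0.968% lower, so the share is near that of all genes. They were Mir19a at 24 h, Mir19b-1 at 2 h, Mir363 and Mir6516. Such probe sets measure the hairpin's transcript and not the mature microRNA. Mir19a had 4.33, 4.10, 3.83 and 4.71 in ATRA, against 4.96 and 4.98 in vehicle, and Mir19b-1 had 5.01, 5.23, 5.14 and 5.49, against 6.11 and 6.21. Their mature sequences (RefSeq, GRCm38.p6, chr14:115044048-115044070 and chr14:115044358-115044380, plus strand) are shown because they share the seed at bases 2 to 8, in capitals.
mmu-miR-19a-3p: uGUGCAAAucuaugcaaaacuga
mmu-miR-19b-3p: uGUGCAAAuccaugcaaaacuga
Both hairpin genes were below both vehicle arrays on all 4 ATRA arrays, and so were their cluster neighbours Mir18 (5.76, 5.67, 5.33 and 5.74, against 6.15 and 6.39) and Mir20a (5.29, 5.13, 5.08 and 5.46, against 5.88 on each). Mir17 lay below both at 24 h only, and these 3 neighbours did not meet the rule at any time.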
